A study of Mus musculus with 6 samples.

Results

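The cathepsins described here are 10 genes of lysosomal proteases, Ctsa, Ctsb, Ctsc, Ctsd, Ctsf, Ctsh, Ctsk, Ctsl, Ctss and Ctsz, read on liver arrays labelled as from mice overexpressing the transcription factor TFEB or from wild-type mice. Their 15 probe sets were every probe set that the platform annotation pairs with exactly 1 gene, that gene being a cathepsin on the list, out of 22626 probe sets tested and 12393 genes with such a probe set. Ctsb had 4 probe sets, Ctsz had 3 and the other 8 genes had 1 each. The group called transgenic here was 3 mice labelled as carrying a conditional allele for TFEB overexpression (gene Tfeb, named Tcfeb in the labels) together with the Alb-Cre transgene, in which the albumin promoter drives Cre recombinase in hepatocytes. The control group was 3 wild-type mice, and the labels do not say whether these carried the Cre or the unrecombined allele. The only Tfeb probe set was not higher in the arrays labelled transgenic, so these arrays do not themselves show the overexpression. All livers were taken at postnatal day 9 and gave 1 array each. Values are log2 expression after RMA as deposited. A difference is the transgenic mean less the wild-type mean, its SE is the standard error from limma, adjusted p-values are limma's with Benjamini-Hochberg adjustment, and n = 3 arrays per group throughout.

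Cathepsins are made as inactive precursors, tagged with mannose 6-phosphate in the Golgi, carried to acidic endosomes and lysosomes, and activated there by removal of the propeptide. Most are cysteine proteases of the papain family, cathepsin D is an aspartic protease and cathepsin A is a serine carboxypeptidase. In liver they degrade proteins delivered by autophagy and endocytosis, both in hepatocytes and in Kupffer cells, the resident macrophages. TFEB is known to bind E-box elements in promoters of lysosomal genes, which gives the comparison its question: how cathepsin transcripts differ between livers labelled as overexpressing TFEB in hepatocytes and wild-type livers.

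Of the 15 cathepsin probe sets, 4 passed an adjusted p of 0.05 higher in transgenic liver. These were Ctsl, Ctsd and 2 of the 4 probe sets of Ctsb. Another 2 passed lower (Ctsh and Ctsf), and 9 did not pass. Over all probe sets 18.1% were called higher, 17.3% lower and 35.4% in either direction. The median difference was 0.05 over the cathepsin probe sets and -0.04 over all probe sets. The member counts were thus not far from those shares. The 40% dimmest probe sets held 0 of the 15. Over the other 13576 the median difference was 0.06, close to that of the cathepsins, with 4045 called higher and 2790 lower. In that fit 5 of the 15 cathepsin probe sets were called higher and 2 lower. Ctsl was 1.99-fold higher and Ctsh 1.47-fold lower on the deposited scale, and with arrays scaled to their bacterial hybridisation controls 11 were called higher and 0 lower, Ctsh no longer passing.

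Several facts of the whole series bear on these values. The 14 probe sets for bacterial hybridisation controls (bioB, bioC and bioD) had all their transgenic readings below all their wild-type readings, with a median difference of -0.37. Scaling the arrays to these controls moved the median difference of all probe sets from -0.04 to 0.33, and 57.3% of all probe sets were then called higher and 4.18% lower. The only Tfeb probe set read 6.58 to 6.91 in wild type and 6.36 to 6.61 in transgenic arrays (difference -0.21, SE 0.11, adjusted p = 0.178), and the labels do not say whether it covers the transgene. Transgenic replicate 1 had a male pattern and the other 5 arrays a female one: Xist, the RNA that coats the inactive X, was at 5.58 there against 13.03 to 13.19, and Eif2s3y, on the Y chromosome, at 9.32 against 3.06 to 3.43.

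Promoter sequence was matched in the RefSeq table of assembly GRCm38.p6 for 8 of the 10 genes, in 9 windows of 300 bases each, running from 250 bases before to 50 bases after an annotated start. Ctsa had 2 windows, and Ctsb and Ctsh were not matched. These windows were searched for the E-box core CACGTG and for the longer form TCACGTGA, which contains it, and each reads the same on both strands. The 4 stretches that hold the core are shown because it is the element TFEB is known to bind. The core is in capitals, each stretch is read 5′ to 3′ on the gene's strand, and coordinates are GRCm38.p6.
Ctsa (chr2:164833523-164833785, plus strand): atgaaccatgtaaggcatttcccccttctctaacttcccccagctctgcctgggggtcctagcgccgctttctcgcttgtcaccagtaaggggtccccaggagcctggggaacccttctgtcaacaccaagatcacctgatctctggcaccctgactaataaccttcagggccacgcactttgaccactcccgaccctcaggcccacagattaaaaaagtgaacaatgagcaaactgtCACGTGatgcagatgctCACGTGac
Ctsd (chr7:142387828-142388077, minus strand): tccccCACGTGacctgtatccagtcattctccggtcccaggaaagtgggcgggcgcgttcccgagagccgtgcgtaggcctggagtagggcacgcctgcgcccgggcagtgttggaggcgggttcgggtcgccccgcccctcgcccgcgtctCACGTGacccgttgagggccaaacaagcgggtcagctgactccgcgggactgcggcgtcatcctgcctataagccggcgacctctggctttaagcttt
Ctsf (chr19:4854915-4855164, plus strand): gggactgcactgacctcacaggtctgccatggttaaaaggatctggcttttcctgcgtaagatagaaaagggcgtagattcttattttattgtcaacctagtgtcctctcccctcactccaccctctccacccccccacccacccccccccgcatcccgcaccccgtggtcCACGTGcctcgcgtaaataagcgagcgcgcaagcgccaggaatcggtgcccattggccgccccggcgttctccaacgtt
Ctsl (chr13:64370521-64370770, minus strand): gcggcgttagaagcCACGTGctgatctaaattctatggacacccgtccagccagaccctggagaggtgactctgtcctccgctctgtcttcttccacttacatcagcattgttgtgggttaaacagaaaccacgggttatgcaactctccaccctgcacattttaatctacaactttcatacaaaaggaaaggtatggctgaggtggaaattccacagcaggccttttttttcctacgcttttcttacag

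Ctsa held 2 cores, the first 12 bases before the annotated start and the second beginning at base 6 after it, and both lay within the 8-base form TCACGTGA. Ctsd held 2 cores, 98 and 245 bases before the start, of which the nearer lay within TCACGTGA. Ctsf held 1 core 79 bases before the start, and Ctsl held 1 core 236 bases before it. The other Ctsa window and the windows of Ctsc, Ctsk, Ctss and Ctsz did not hold these letters. Among all 32851 windows of the table, 7.15% held CACGTG and 0.974% held TCACGTGA. A match describes the letters only. Of the 4 genes with a core, Ctsl and Ctsd rose, Ctsf fell on the deposited scale (with the opposite sign, 0.06, when scaled to the hybridisation controls) and Ctsa did not pass. Among the 1069 array genes with CACGTG in a window, 24.8% were called higher and 18.1% lower. Among the 174 with TCACGTGA these shares were 26.4% and 12.6%, and over all genes 19.1% and 19.5%. The shares over all genes include genes without a matched window, such as Ctsb and Ctsh, so the sets are unlike. Shares over only the array genes with a window were not taken.

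**Figure D1:**
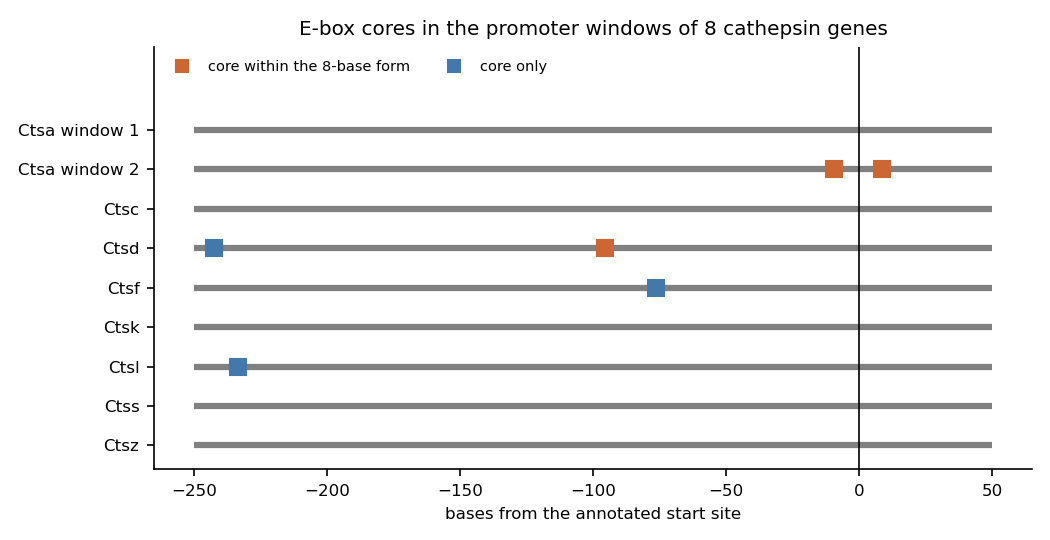
Positions of the E-box core in the 9 promoter windows of 8 cathepsin genes, in bases from the annotated start site (x axis). Orange squares mark cores within the 8-base form and blue squares cores alone. Cores lie at the start of Ctsa, at 98 and 245 bases before that of Ctsd, and in 1 place each in Ctsf and Ctsl.

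Ctsl, a cysteine endopeptidase that is a main protein-degrading enzyme of the lysosome, had the largest difference of the 10 genes. Its probe set read 12.94, 13.06 and 13.07 in the wild-type arrays and 13.91, 14.10 and 14.04 in the transgenic arrays. Every transgenic array lay above every wild-type array, with a gap wider than the whole spread within either group. The group means were 13.02 ± 0.08 and 14.02 ± 0.10 (SD, n = 3), a rise of 0.99 (SE 0.08, adjusted p = 8.21e-05) or 1.99-fold, with a 95% interval of 1.75- to 2.27-fold. The highest value of any probe set on an array was 14.84 to 14.902, so the transgenic Ctsl readings were near the top of the scale. Under the 4 other scalings tried the difference was 0.93 to 1.37, and it passed in each.

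Ctsd, the aspartic endopeptidase cathepsin D, had the next largest rise. It read 11.16, 11.01 and 11.03 in wild type and 11.49, 11.62 and 11.66 in transgenic liver, again without overlap. The difference was 0.52 (SE 0.08, adjusted p = 0.0018), or 1.44-fold. With the other scalings it was 0.44 to 0.89 and passed in each. Ctsl and Ctsd also passed whichever array was left out, including transgenic replicate 1 with the male pattern, where Ctsl differed by 1.05 and Ctsd by 0.57.

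Ctsb, a cysteine protease with both endopeptidase and dipeptidyl carboxypeptidase activity, gave different readings on its 4 probe sets. On the probe set with the highest mean, 1417490_at, wild-type arrays read 12.39, 12.31 and 12.34 and transgenic arrays 12.50, 12.61 and 12.66. On 1448732_at the readings were 10.32, 10.37 and 10.23 against 10.53, 10.67 and 10.46. The groups did not overlap on either, and both passed, with differences of 0.24 (SE 0.07, adjusted p = 0.0356) and 0.25 (SE 0.08, adjusted p = 0.0481). The probe set 1417492_at read 9.39, 9.53 and 9.67 in wild type and 9.62, 9.63 and 9.65 in transgenic liver. The probe set 1417491_at read 8.12, 8.005 and 8.25 in wild type and 8.06, 7.89 and 7.94 in transgenic liver. On these the groups overlapped, with differences of 0.10 (adjusted p = 0.371) and -0.16 (adjusted p = 0.19). The mean of the 4 differed by 0.11 (adjusted p = 0.17). Scaled to the hybridisation controls, 1417491_at differed by 0.21 and did not pass (adjusted p = 0.125). The others passed higher on that scale: 1417490_at at 0.61, 1448732_at at 0.62 and 1417492_at at 0.48 (adjusted p = 0.000249, 0.000671 and 0.0022). Neither 1417490_at nor 1448732_at passed with cyclic loess (adjusted p = 0.131 and 0.187) or median centring (0.065 and 0.0867). With quantile normalization again, 1448732_at did not pass (0.0617). The adjusted p of 1417490_at rose past the threshold when wild-type replicate 2 (0.101) or 3 (0.0837), or transgenic replicate 2 (0.0987) or 3 (0.111), was left out. That of 1448732_at did so whichever of the 6 arrays was left out (0.0547 to 0.151).

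Ctsa, the serine carboxypeptidase that protects beta-galactosidase and neuraminidase in the lysosome, did not pass. It read 10.50, 10.35 and 10.35 in wild type and 10.54, 10.65 and 10.61 in transgenic liver, and these groups did not overlap. The difference was 0.20 (SE 0.08, adjusted p = 0.0743), with a 95% interval of 0.02 to 0.37. It passed without wild-type replicate 1 (adjusted p = 0.0399, difference 0.25), without the 40% dimmest probe sets (adjusted p = 0.0458), with trend and robust options (0.039), with array weights (0.0346) and with scaling to the hybridisation controls (difference 0.57, adjusted p = 0.000639).

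Ctsh, a cysteine protease that acts mainly as an aminopeptidase, was the cathepsin with the largest fall. Wild-type arrays read 11.95, 12.01 and 11.94, and transgenic arrays read 11.59, 11.23 and 11.40. The wild-type readings were close together, and all 3 transgenic readings lay below them. Ctsh fell by 0.56 on the deposited scale (SE 0.10, adjusted p = 0.00363), which is 1.47-fold, whereas with arrays scaled to the hybridisation controls the difference was -0.19 and did not pass (adjusted p = 0.209). It passed whichever array was left out.

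Ctsf, a cysteine protease whose long propeptide carries a cystatin-like domain, read 8.52, 8.48 and 8.47 in wild type and 8.03, 8.15 and 8.35 in transgenic liver. All 3 transgenic readings were lower, and they were spread more widely than the wild-type ones. Ctsf fell by 0.31 on the deposited scale (SE 0.09, adjusted p = 0.031), or 1.24-fold, and had the opposite sign (0.06, adjusted p = 0.608) when scaled to the hybridisation controls. It no longer passed when any 1 wild-type array was left out (adjusted p = 0.0653, 0.0736 and 0.065 for replicates 1, 2 and 3), nor on leaving out transgenic replicate 1 (0.0902) or 2 (0.0896).

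**Figure D2:**
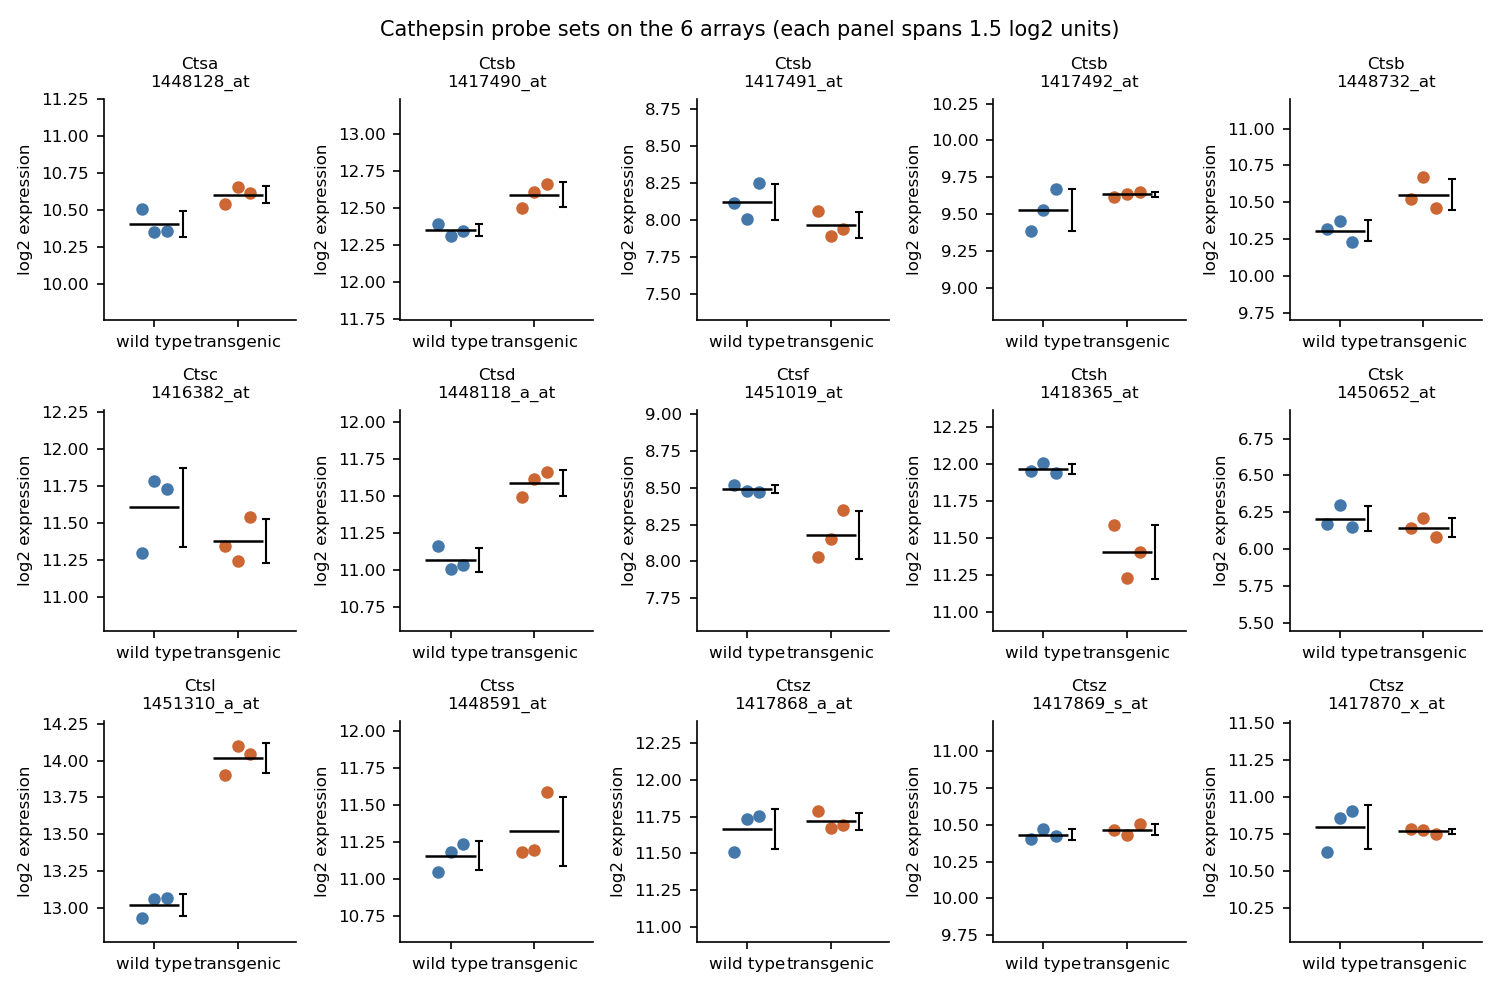
Log2 expression (y axis) of the 15 cathepsin probe sets on the 3 wild-type (blue) and 3 transgenic (orange) arrays. Each point is 1 array, the horizontal bar is the group mean, the error bar at its right is ± 1 SD, and every panel spans the same range of log2 units. Ctsl and Ctsd stand apart upward and Ctsh downward, while the readings of Ctsk and Ctsz overlap.

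The remaining cathepsins did not pass. Ctsc, dipeptidyl peptidase I, which activates the serine proteases of granulocyte and lymphocyte granules, read 11.30, 11.79 and 11.73 in wild type and 11.35, 11.24 and 11.54 in transgenic liver. Wild-type replicate 1 was low and overlapped with the transgenic arrays. The difference was -0.23 (SE 0.14, adjusted p = 0.236), with a 95% interval of -0.55 to 0.09. Without wild-type replicate 1 it was -0.38 and passed (adjusted p = 0.0263), and scaled to the hybridisation controls it was 0.14 (adjusted p = 0.359).

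Ctss, the cathepsin of antigen-presenting cells that trims the MHC class II invariant chain and stays active at neutral pH, read 11.05, 11.18 and 11.24 in wild type and 11.18, 11.19 and 11.59 in transgenic liver. Only transgenic replicate 3 lay above the wild-type range. The difference was 0.17 (SE 0.12, adjusted p = 0.314), with a 95% interval of -0.11 to 0.45, and it was 0.03 without that array. Scaled to the hybridisation controls it was 0.54 and passed (adjusted p = 0.00152).

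Ctsz, a carboxypeptidase also called cathepsin X, read 11.51, 11.73 and 11.75 against 11.78, 11.67 and 11.69 on its brightest probe set, 1417868_a_at. The groups overlapped on all 3 of its probe sets, with differences of 0.05, 0.04 and -0.03 (adjusted p = 0.666, 0.703 and 0.816). The 95% intervals on the deposited scale reached at most from -0.23 to 0.25. The signs of these differences turned under other scalings. Scaled to the hybridisation controls, all 3 probe sets passed higher, at 0.42, 0.41 and 0.34 (adjusted p = 0.00683, 0.00417 and 0.018). Ctsk, the collagen-degrading cathepsin of osteoclasts, read 6.17, 6.30 and 6.15 in wild type and 6.15, 6.21 and 6.09 in transgenic liver. Its groups overlapped too, with a difference of -0.06 (adjusted p = 0.557, interval -0.23 to 0.11), and 0.31 when scaled to the hybridisation controls (adjusted p = 0.0271).

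Across the 15 probe sets the 2 groups did not overlap on 7, 5 with transgenic above and 2 with transgenic below, where 50.5% of all probe sets did not overlap, 24.6% with transgenic above and 25.9% below. Scaled to the hybridisation controls, 11 of the 15 were called higher and 0 lower by limma (11 and 0 also at an unadjusted p under 0.05), against 57.3% and 4.18% of all probe sets. An array-wide shift cancels in a difference taken within an array. Ctsl minus Ctsh, a pair chosen after its values were seen and given as a description, was 0.98, 1.05 and 1.13 in the wild-type arrays and 2.31, 2.88 and 2.64 in the transgenic arrays. The ratio of the Ctsl reading to the Ctsh reading was thus 2.94-fold higher in the transgenic group, whichever array-wide factor is used. Ctsd minus Ctsh, chosen in the same way, was -0.79, -1.002 and -0.91 against -0.10, 0.39 and 0.26.

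**Figure D3:**
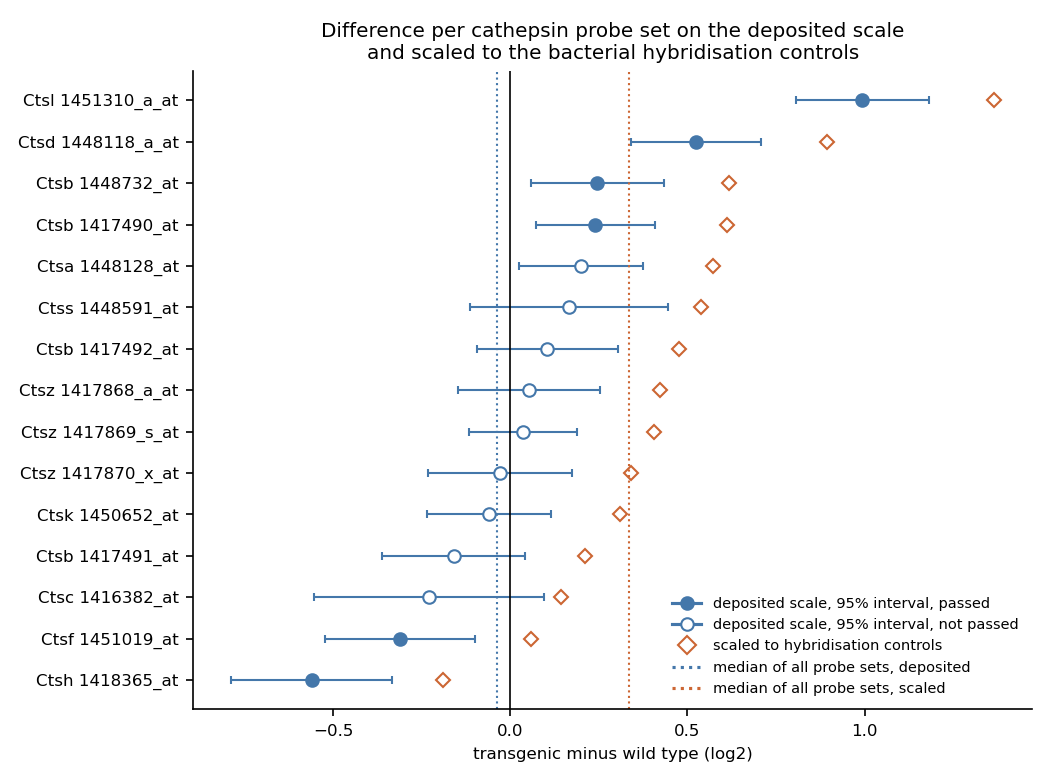
Difference between transgenic and wild-type arrays (x axis, log2) for each cathepsin probe set, on the deposited scale (blue circles with 95% intervals, filled where the adjusted p was under 0.05) and scaled to the bacterial hybridisation controls (orange diamonds). Dotted lines give the median of all probe sets on each scale, -0.04 and 0.33. Ctsl and Ctsd lie to the right of the median on both scales and Ctsh and Ctsf to the left, although Ctsf is at 0.06 when scaled.

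**Figure D4:**
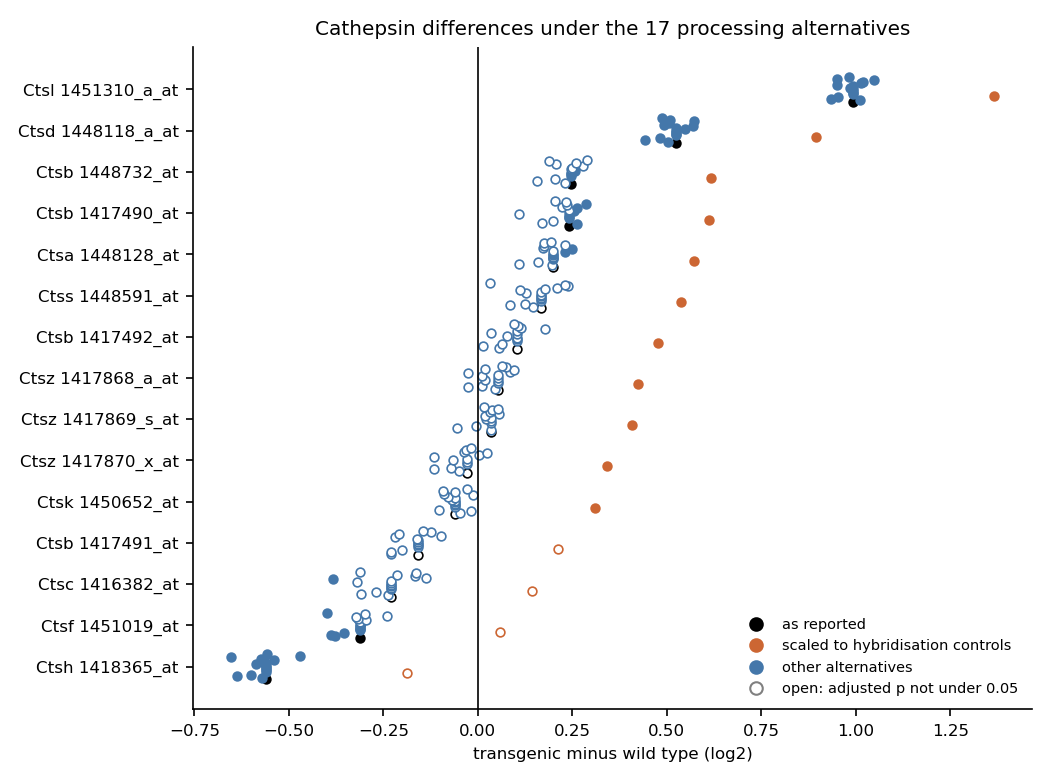
Difference between transgenic and wild-type arrays (x axis, log2) for each cathepsin probe set as reported (black), scaled to the hybridisation controls (orange) and under the other alternatives (blue). Open points had an adjusted p of 0.05 or more. Ctsl and Ctsd are filled throughout, from 0.93 to 1.37 and from 0.44 to 0.89, whereas the points of Ctsb and Ctsf are partly open.

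The 6 readings of Ctsl, centred on their mean, were most like those of Peg3, Gdpd1 and Pi4ka, at root mean square distances of 0.04, 0.05 and 0.05 on the log2 scale over the 6 arrays. Peg3, an imprinted zinc finger gene, differed by 1.01, the phosphodiesterase gene Gdpd1 by 1.00 and the phosphatidylinositol kinase gene Pi4ka by 1.01 between the groups. This likeness is a description over 6 arrays in 2 groups.

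Among the other lysosomal proteases the largest rise was that of legumain. Lgmn, the asparaginyl endopeptidase legumain, which cleaves several cathepsins to their mature 2-chain forms, read 9.25, 9.65 and 9.63 in wild type and 10.93, 11.19 and 11.17 in transgenic liver. It rose by 1.59 (SE 0.13, adjusted p = 7.24e-05), or 3.01-fold, more than any cathepsin in its point estimate. Of 6 other lysosomal proteases measured, Lgmn and Dpp7 rose and 4 did not pass, with 0 lower (0 also at an unadjusted p under 0.05). Dpp7, a dipeptidyl peptidase, rose by 0.27 (SE 0.07, adjusted p = 0.0153) on its brightest probe set. That probe set did not pass on leaving out transgenic replicate 3 (adjusted p = 0.0511) or wild-type replicate 2 (0.0538), nor with cyclic loess (0.0611). In those fits 1 gene of the list rose. Another Dpp7 probe set, 1435680_a_at, rose by 0.41 (adjusted p = 0.00527), and 1436480_at differed by 0.18 without passing (adjusted p = 0.207). With scaling to the hybridisation controls 5 of the 6 rose, where 57.3% of all probe sets did. With 1 probe set per gene, 19.1% of all genes were called higher, 19.5% lower and 38.6% in either direction, and the median of the 6 was 0.07. Of the cathepsin partners, Glb1 and Neu1, which form a complex with cathepsin A, and Psap and Grn, precursors of lysosomal proteins, 0 of 4 passed in either direction (0 also at an unadjusted p under 0.05), with differences of 0.16, 0.16, -0.01 and 0.13. Without wild-type replicate 1 the count higher was 1, and with scaling to the hybridisation controls it was 4.

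Of 9 measured genes that tag cathepsins with mannose 6-phosphate or sort them to lysosomes, 4 rose, 1 fell and 4 did not pass. Their median was 0.10, and over all genes 19.1% were called higher and 19.5% lower. Igf2r, the large mannose 6-phosphate receptor, read 8.96, 9.49 and 9.33 in wild type and 10.31, 10.21 and 10.22 in transgenic liver, a rise of 0.99 (SE 0.13, adjusted p = 0.000884). Its other probe set also rose, 1.78-fold. Gga2, an adaptor that loads these receptors into Golgi vesicles, rose by 1.03 (SE 0.10, adjusted p = 0.000155), from 7.28, 7.56 and 7.39 to 8.45, 8.53 and 8.33. M6pr, the small mannose 6-phosphate receptor, read 10.40 to 10.66 with a difference of -0.10 (adjusted p = 0.361). Sort1, the receptor sortilin, fell by 0.28 on the deposited scale (SE 0.08, adjusted p = 0.0252), was at 0.10 when scaled to the hybridisation controls, and did not pass on leaving out wild-type replicate 1 (adjusted p = 0.0595) or 3 (0.0607), or transgenic replicate 2 (0.0628) or 3 (0.0835), when 0 genes of the list were lower. Its other 2 probe sets passed lower too. The count of genes that rose was 2 without wild-type replicate 2 or transgenic replicate 1 or 3. In those fits 2 adaptor subunits, Ap1g1 and Ap1s1, no longer passed. Ap1g1 rose on its brightest probe set only. Its others differed by 0.08, -0.15 and -0.08 without passing, and the mean of all its probe sets differed by 0.03 (adjusted p = 0.723). With cyclic loess 2 rose. With scaling to the hybridisation controls 8 rose and 0 fell, against 57.3% and 4.18% of all probe sets.

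Of 8 endogenous cathepsin inhibitors measured, 2 rose, 2 fell and 4 did not pass, with a median of -0.06. Of all genes, 19.1% were called higher and 19.5% lower. When the arrays were scaled to the hybridisation controls, 5 rose and 1 fell, with a median of 0.32. On that scale 57.3% of all probe sets were called higher and 4.18% lower, with a median of 0.33. Cstb, the intracellular inhibitor cystatin B, rose by 0.49 (SE 0.08, adjusted p = 0.00298), from 11.63, 11.73 and 11.85 to 12.23, 12.16 and 12.30. Ctla2a, which resembles a cathepsin propeptide, rose by 0.50 (SE 0.09, adjusted p = 0.0034). Stfa3, a stefin of granulocytes, fell by 2.14 (SE 0.38, adjusted p = 0.00369), and the difference was -1.77 when scaled to the hybridisation controls. Cst7, the leukocyte inhibitor cystatin F, fell by 0.54 on the deposited scale (SE 0.11, adjusted p = 0.00686), and was at -0.17 without a call when scaled to those controls. Cst3, cystatin C, read 11.00 to 11.22 with a difference of -0.09 (adjusted p = 0.382), and Kng1, a plasma kininogen with cystatin domains, differed by -0.02 near the top of the scale.

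**Figure D5:**
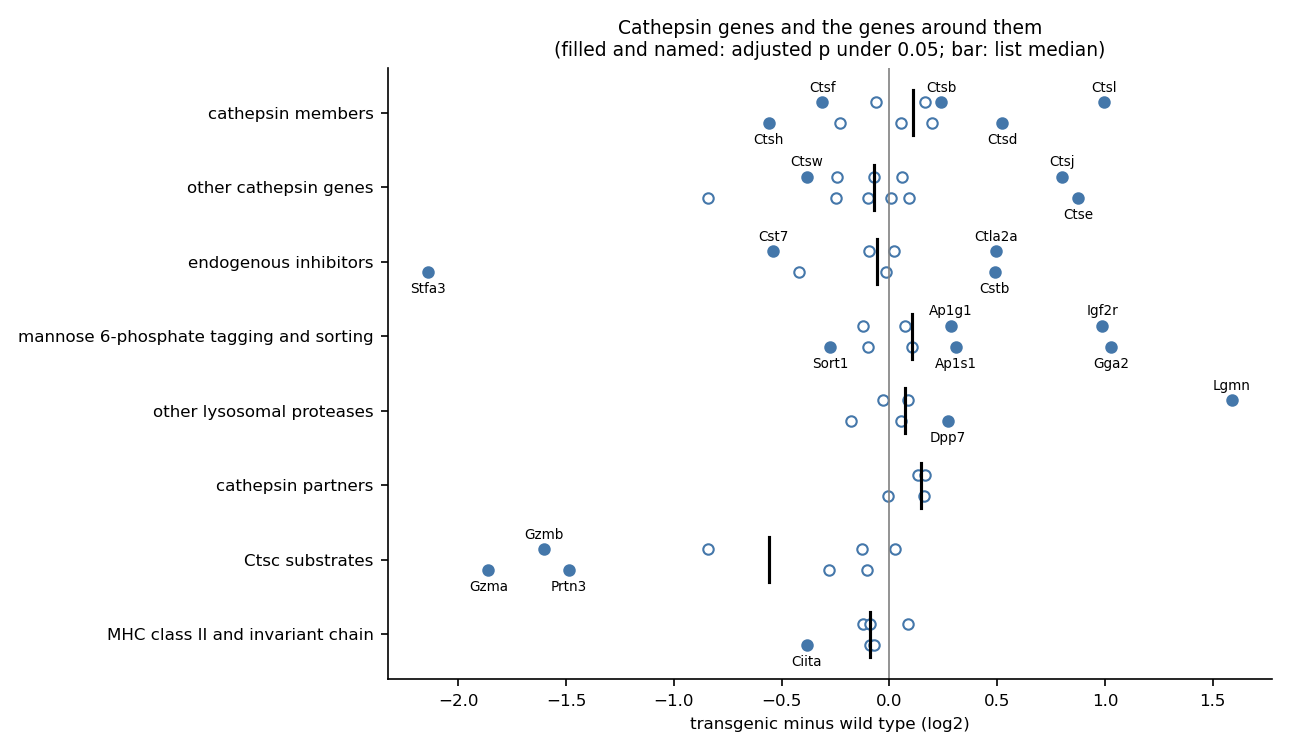
Difference between transgenic and wild-type arrays (x axis, log2) for the 10 cathepsins and 7 lists of genes around them, with 1 probe set per gene on the deposited scale. Filled and named points had an adjusted p under 0.05 and vertical bars are list medians. Lgmn at 1.59 lies farthest right, and Stfa3 at -2.14 farthest left, beside Gzma, Gzmb and Prtn3 of the Ctsc substrates. Ctsf and Sort1 have the opposite sign when scaled to the hybridisation controls.

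Serine proteases that Ctsc activates were lower where they passed. Of 8 measured, 3 fell, 0 rose (0 also at an unadjusted p under 0.05) and 5 did not pass, with a median of -0.56. Over all genes 19.1% were called higher and 19.5% lower. With arrays scaled to the hybridisation controls, 57.3% and 4.18% of all probe sets were. The granzymes Gzma and Gzmb fell by 1.86 (SE 0.17, adjusted p = 0.000128) and by 1.60 (SE 0.20, adjusted p = 0.000738), and the granulocyte protease Prtn3 fell by 1.49 (SE 0.34, adjusted p = 0.0118). Scaled to the hybridisation controls, those 3 also passed lower and 1 gene of the list was higher, whereas Prtn3 did not with trend and robust options (adjusted p = 0.0506). Granulocyte markers were lower for 7 of 9 measured, with a median of -1.98 and a summed linear signal of 11328 to 25229 in wild type and 3292 to 7088 in transgenic liver. Lymphoid markers were lower for 7 of 8, with sums of 655 to 772 and 355 to 440 (3 of 8 when scaled to the hybridisation controls). In whole liver RNA, fewer cells of a type and less RNA per cell cannot be told apart, and the part of these markers in the Ctsc, Stfa3 and granzyme values was not tested.

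The invariant chain and MHC class II genes that act with Ctss showed 1 of 6 lower and 0 higher (0 also at an unadjusted p under 0.05). That gene was Ciita, the class II transactivator, which fell by 0.38 on the deposited scale (SE 0.07, adjusted p = 0.00524) and was at -0.01 when scaled to the hybridisation controls, which left 0 of the list lower and 1 higher. Cd74, the invariant chain, differed by 0.08 (adjusted p = 0.693). For comparison, 19.1% of all genes were called higher and 19.5% lower. When scaled to the hybridisation controls, 57.3% and 4.18% of all probe sets were. Macrophage markers were lower for 4 of 13 measured and higher for 0 (7 and 0 at an unadjusted p under 0.05), with sums of 20034 to 25430 in wild type and 16625 to 21180 in transgenic liver. Scaled to the hybridisation controls, 3 were higher and 0 lower. Adgre1 fell by 0.56 and Marco, a scavenger receptor, also fell by 0.56 on the deposited scale, while Cd68, a lysosomal membrane protein of macrophages, differed by 0.07 (adjusted p = 0.527). Osteoclast markers, set beside Ctsk, were higher for 1 (Acp5, 0.36, with no call under 3 of the 4 other scalings) and lower for 1 (Mmp9, -0.84) of 4, with sums of 1027 to 1225 and 1225 to 1514. The part of these markers in the Ctsh, Ctss and Ctsk values was not tested.

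Markers of the liver's own lines moved as well, where 19.1% of all genes were called higher and 19.5% lower. With scaling to the hybridisation controls, 57.3% and 4.18% of all probe sets were. Hepatocyte markers were lower for 9 of 11 and higher for 0 (the same at an unadjusted p under 0.05), and with scaling to the hybridisation controls for 5 of 11, with 2 higher. Their summed signal was 157074 to 159426 in wild type and 125322 to 126811 in transgenic liver, and Alb and Ttr were among the brightest probe sets of every array, in keeping with the liver label. Cholangiocyte markers were higher for 4 of 5 under every scaling tried, with sums of 346 to 787 and 2325 to 3150. Endothelial markers were higher for 1 and lower for 4 of 8 (3 higher and 0 lower when scaled to the hybridisation controls), and stellate and fibroblast markers were higher for 1 and lower for 3 of 10 (6 higher and 2 lower when so scaled). The part of these markers in the cathepsin values was not tested.

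Another 11 cathepsin genes were measured beside the 10, of which 2 were called higher, 1 lower and 8 not passed. The shares over all genes were 19.1% higher and 19.5% lower. Scaled to the hybridisation controls, 7 were higher and 0 lower, against 57.3% and 4.18% of all probe sets. The lower count was 2 without wild-type replicate 1 and with array weights. Ctse, an aspartic protease of endosomes, had 2 probe sets that passed in opposite directions. Its brighter probe set read 8.55, 7.76 and 7.81 in wild type and 9.04, 8.94 and 8.78 in transgenic liver (difference 0.88, SE 0.20, adjusted p = 0.0114), whereas 1427797_s_at read 5.64, 5.85 and 6.20 against 5.37, 5.10 and 4.97 (difference -0.75, SE 0.16). The mean of both differed by 0.06 (adjusted p = 0.662). Ctsj, of the placental cathepsin cluster, rose from 3.31 ± 0.22 to 4.11 ± 0.30 (difference 0.80, adjusted p = 0.00763). These readings were dim, and whether the probe set also reads near relatives of Ctsj was not tested. Ctsw, of cytotoxic lymphocytes, fell by 0.38 on the deposited scale (SE 0.08, adjusted p = 0.00815) and was at -0.01 when scaled to the hybridisation controls. Ctsg, the granulocyte serine protease, read 5.88, 6.94 and 6.87 in wild type and 5.99, 5.15 and 6.02 in transgenic liver. It did not pass (difference -0.84, SE 0.32, adjusted p = 0.0752).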

How the data were processed

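Total RNA from 6 livers was labelled as biotinylated cRNA and read on Affymetrix arrays, per the labels. The deposited values are log2 expression per probe set made by the authors with affy and RMA (no versions given), per the submitters' processing notes. RMA brings the probe intensities of all arrays to 1 distribution, which hides a change in the total RNA of a cell. The probe set values still differed slightly between arrays, with medians of 6.74 to 6.76 in wild type and 6.78 to 6.79 in transgenic arrays. The table held 22690 probe sets, of which 64 array controls were left out. Probe sets were named by the platform annotation, with 20351 of 20380 matched to RefSeq through Entrez identifiers. Coordinates are given for the RefSeq promoter windows only.

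The 2 groups were tested with limma 3.58.1 in R 4.3.3, without covariates, with Benjamini-Hochberg adjustment over 22626 probe sets and a threshold of 0.05. Groups came from the titles, which call the arrays biological replicates. Genes of other lists were represented by their probe set with the highest mean. With 3 arrays a group the smallest exact permutation p is 0.1, so none was used. On simulated data with 200 of 22626 probe sets changed by 0.5, 1 or 2, 43.3%, 79.1% and 100.0% were recovered, with 6 false calls. The simulation changed far fewer probe sets than the 35.4% called in these data, so its rates do not carry over to this comparison. The alternatives changed the normalization, the filters, the probe set summary, the spread model, the pairing and the arrays used. The number of arrays limits the precision. Cathepsins, lists and the naming rule (every cathepsin probe set, up to 2 rises and 2 falls of each list, and the 3 profiles closest to the most changed cathepsin) were chosen with earlier results of these data known. M6pr, Cst3, Kng1, Cd74, Cd68, Ctsg, Ap1g1, Ap1s1, Prtn3, Alb, Ttr and the partners fall outside that rule. Tables and figures used Python 3.11.15, pandas 2.3.3 and matplotlib 3.10.9.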

Additional observations from a re-analysis of the deposited data

How the results depend on the processing

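Counts below are of cathepsin probe sets called higher (4 as reported) and lower (2). The higher count was 2 with cyclic loess, with median centring and after averaging the probe sets of each gene, 1 without the _s_at, _x_at and _a_at probe sets (which leaves out Ctsl and Ctsd), and 11 with arrays scaled to the hybridisation controls, when the lower count was 0. It ranged from 2 to 4 with each array left out in turn, and the lower count from 1 to 2. The labels do not tie replicate numbers across the groups, and deviations of same-numbered arrays correlated at -0.095, -0.021 and 0.051, so the numbers were not taken as pairs. With a replicate block 2 were higher (Ctsl and Ctsd) and 1 lower (Ctsh).

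Over 17 alternatives, 193 of 240 single cathepsin values kept their direction and side of the threshold. Signs turned with scaling to the hybridisation controls for Ctsb 1417491_at (0.21), Ctsc (0.14), Ctsf (0.0593), Ctsk (0.31), Ctsz 1417870_x_at (0.34) and, outside the cathepsins, Sort1 (0.10). Ctsz 1417868_a_at turned with cyclic loess (-0.0262) and without wild-type replicate 1 (-0.0253), and Ctsz 1417869_s_at with cyclic loess (-0.0548) and median centring (-0.0057). Ctsz 1417870_x_at turned without wild-type replicate 2 (0.0023) or 3 (0.0248), in a range of -0.115 to 0.0248 over the arrays left out. Scaling adds 1 factor per array, and the cause of the other changes was not tested. RMA values carry no detection calls, so signal over background is unknown.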
